A study of Triticum aestivum with 6 samples.

Results

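The genes described here are the wheat genes annotated as lipoxygenase, 3-ketoacyl-CoA synthase, hydroxyacyl-CoA dehydratase or lipid-transfer protein in the 2 tables that the authors deposited for their comparison of the groups headed K1 and US1. A probe was kept when its annotated description held one of these 4 terms and described the probe's own gene. This gave 7 of the 895 genes listed in either table, or 7 of the 258 that carried a description of their own. The authors' DESeq2 table held 3 of them, a lipoxygenase (TraesCS5B02G382300), a 3-ketoacyl-CoA synthase (TraesCS7D02G089200) and TraesCS3B02G089500, a hydroxyacyl-CoA dehydratase of very-long-chain acyl substrates. The authors' second table, which gives a Z-score of a difference under the heading ID, held the other 4, which were 2 lipoxygenases (TraesCS5D02G513100 and TraesCS6B02G160400) and 2 non-specific lipid-transfer proteins (TraesCS3A02G344700 and TraesCS3D02G338300). None of the 7 genes (0 of 7) was in both tables, so each has either a fold change or a score, and never both. Of all 895 genes 18 were in both. These were 18 of the 861 in the DESeq2 table and 18 of the 52 in the score table. Most genes of each table therefore share this split.

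The RNA came from leaf of winter wheat (Triticum aestivum, breeding line SE15) on day 7, with 3 samples grown from untreated seed and 3 from seed exposed to ultrasound before germination. Ultrasound was applied at 30 kHz and 70 W for 5 minutes, with the seed 4 cm from the ultrasound head. Both groups began with 100 seeds of 13.6% water content and germinated in darkness at 20 °C. Per the labels the 3 samples of each group were independent biological samples of 1 breeding line, and the sources used here do not say whether the seedlings of a sample shared a dish.

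Lipoxygenases add oxygen to polyunsaturated fatty acids, and in leaves their products feed the synthesis of oxylipins, among them the hormone jasmonic acid. Very-long-chain fatty acids, which are built into the surface wax of the shoot and into sphingolipids, are made by a repeating cycle on the endoplasmic reticulum. In that cycle 3-ketoacyl-CoA synthase joins the new carbon unit to the acyl chain, a reductase acts on the product, hydroxyacyl-CoA dehydratase removes water, and a further reductase completes the round. Non-specific lipid-transfer proteins are small secreted proteins that bind lipids in a hydrophobic cavity and are abundant in the epidermis and in cereal grains.

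The deposited tables hold statistics per probe and no value per sample, so the spread between samples, the read depth and the expression level of these genes are unknown. The members were also chosen from these same statistics, so the values below are a description and no test was run on them. The DESeq2 table listed 861 probes, 1.12% of the 76618 tests implied by its adjusted p-values (FDR), with 441 (0.576%) at a positive and 420 (0.548%) at a negative log2 fold change. The score table listed 52 genes, 0.0433% of 120099 implied tests, of which 49 (0.0408%) had a negative and 3 (0.0025%) a positive score. The headers do not say which group was divided by which, so signs are given as deposited. A positive log2 fold change would be higher RNA after ultrasound only if US1 was the numerator. In leaf tissue as a whole, fewer cells of a type and less RNA per cell cannot be told apart.

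The enzymes of fatty acid elongation had large fold changes of opposite sign in the authors' deposited DESeq2 table. The 3-ketoacyl-CoA synthase was on the positive side with a log2 fold change of 5.67, and the hydroxyacyl-CoA dehydratase was on the negative side with -6.66. The synthase value corresponds to a 50.8-fold difference, and the dehydratase value to 101-fold. Both estimates were imprecise. A standard error (SE) was derived from the authors' fold and p-value, and it was 1.09 for the synthase and 1.63 for the dehydratase, against a median of 0.43 over all listed probes. The 95% intervals built on these errors ran from 3.53 to 7.80 for the synthase and from -9.85 to -3.47 for the dehydratase. That neither interval reached 0 was fixed by the authors' selection at an FDR under 0.05, and with opposite signs the intervals then could not overlap. As ratios they span 11.6-fold to 223-fold for the synthase and 11.1-fold to 921-fold for the dehydratase.

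The authors' shrunk log2 fold changes, which pull uncertain estimates toward 0, separated these genes. The synthase had a shrunk value of 2.07 (4.21-fold), 36.6% of its unshrunk value, and the dehydratase one of -1.05 (2.07-fold), 15.8% of its unshrunk value. The synthase ranked 25 of 441 on the positive side by unshrunk fold and 17 by shrunk fold, and among the 163 described genes of that side it ranked 9 and 14. The dehydratase ranked 11 of 420 on the negative side by unshrunk fold but 341 by shrunk fold, and among the 69 described genes of that side it moved from 4 to 50. Of the 25 positive probes with a fold at least as large as that of the synthase, the synthase included, 2 had a smaller SE. Of the 11 negative probes with a fold at least as large in size as that of the dehydratase, the dehydratase included, 5 had a smaller SE. The synthase also had the smaller p-value, with a DESeq2 adjusted p of 0.000165 and place 88 of 861, against a DESeq2 adjusted p of 0.00927 and place 351 for the dehydratase.

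The synthase probe lay on chromosome 7D from 53808556 to 53810387 on the plus strand, and the dehydratase probe on 3B from 59154431 to 59157620, also on the plus strand. Each probe was annotated as overlapping its gene, with no exon or UTR given, and the sources used here do not name the genome build. The description of the dehydratase names very-long-chain substrates, and that of the synthase names the enzyme activity only. The tissue in which either copy acts is not annotated. No further gene described as 3-ketoacyl-CoA synthase or hydroxyacyl-CoA dehydratase was in either table, and the tables show nothing of the copies of these genes on the other subgenomes.

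**Figure D1:**
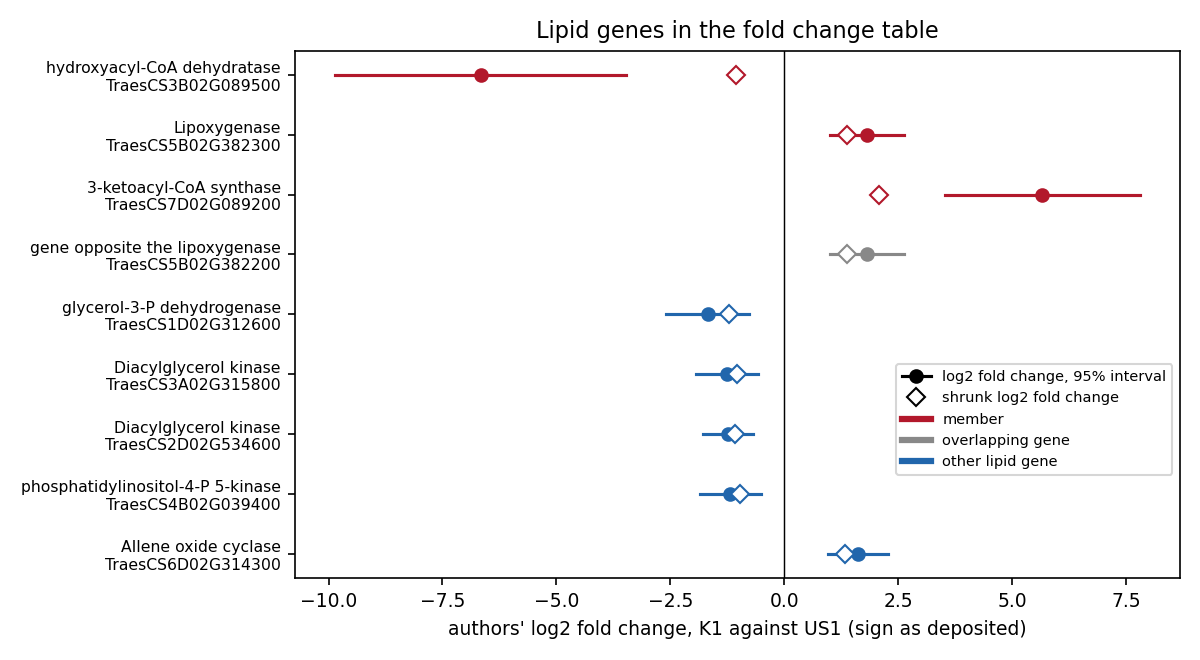
The authors' log2 fold change (filled circles) with its 95% interval from the implied SE (lines) and shrunk log2 fold change (open diamonds) for the 3 genes chosen by description (red), the gene opposite the lipoxygenase (grey) and the 5 other lipid genes (blue). The synthase at 5.67 and the dehydratase at -6.66 have wide intervals and shrunk values far nearer 0, while the remaining genes lie between -1.68 and 1.82.

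The lipoxygenase of the DESeq2 table had a moderate and more precise fold change. In the authors' deposited DESeq2 table TraesCS5B02G382300 (5B, 560441118 to 560444767, minus strand) had a log2 fold change of 1.82 (3.54-fold), with an implied SE of 0.41, a 95% interval from 1.01 to 2.64 and a DESeq2 adjusted p of 0.00325. Its shrunk value was 1.39 (2.62-fold), 76.1% of the unshrunk one. By unshrunk fold it sat close to the median of the positive side, 1.90, and 203 of the 441 positive probes had a smaller fold. By shrunk fold it was above the side's median of 1.27 and ranked 131 of 441. By p-value it was at place 252 of 861.

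The lipoxygenase value cannot be assigned to that gene alone. A probe for TraesCS5B02G382200 on the plus strand (560441166 to 560444838) covers 98.7% of the lipoxygenase span, an overlap of 3602 bases. Its deposited log2 fold change was 1.82, its shrunk value 1.39 and its DESeq2 adjusted p 0.00328, so the pair differed by 0.000326 on the log2 scale. This probe carried the lipoxygenase description only because it was annotated to the gene on the other strand, and it was not counted as a lipoxygenase. The labels' library protocol describes no strand marking, and without strand the reads of both genes cannot be told apart.

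**Figure D2:**
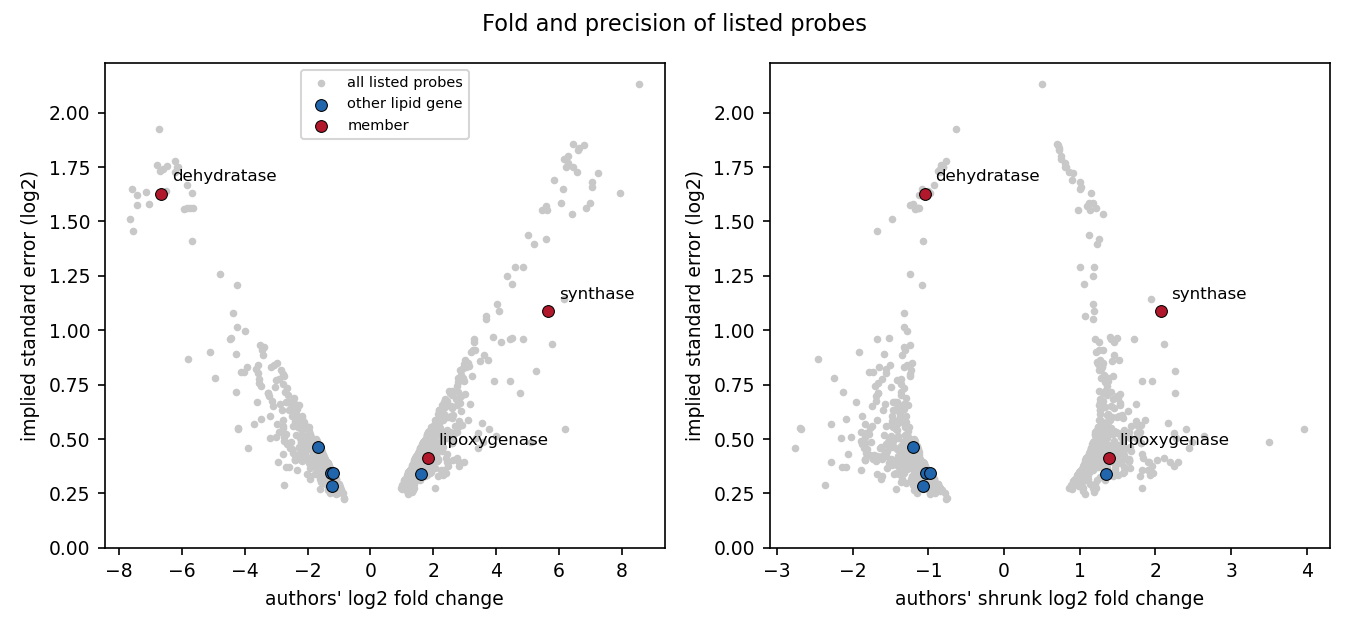
Implied SE (vertical axis, log2 units) against the authors' log2 fold change (left) and shrunk log2 fold change (right) for all 861 listed probes (grey), with the 3 genes chosen by description (red) and 5 other lipid genes (blue). The dehydratase (SE 1.63) and the synthase (SE 1.09) both lie among the imprecise probes, at places 830 and 801 of 861 from the lowest SE. After shrinkage the dehydratase moves to -1.05 and the synthase to 2.07, rank 17 of 441 on the positive side.

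The other lipoxygenases were in the authors' deposited score table, where both had negative scores, as had 49 of all 52 listed genes. All 18 genes listed in both tables had a score opposite in sign to their fold change. TraesCS5D02G513100 (5D, 537221655 to 537225469, minus strand) had a Z-score of -4.71 and an FDR of 0.01002, at place 15 of 52 by p-value. TraesCS6B02G160400 (6B, 164357412 to 164360569, plus strand) had a Z-score of -4.50, equal to the median of the 49 negative scores, and an FDR of 0.01595, at place 26. The scores of these genes differed by 0.207. No probe of another gene was listed over either position. Neither description says which position of the fatty acid the enzyme oxidises or whether the protein is plastidial, so the 3 lipoxygenases cannot be sorted by product.

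The lipid-transfer proteins had the weakest scores of the group in the authors' deposited score table. TraesCS3D02G338300 (3D, 451234111 to 451235231, minus strand) had a Z-score of -4.37 with an FDR of 0.02288, at place 32 of 52. TraesCS3A02G344700 (3A, 594348719 to 594349676, minus strand) had a Z-score of -4.11 with an FDR of 0.04755, and it was the last gene listed, at place 52. It shared that FDR with 5 further genes and therefore marks the edge of the selection. The pair lay on chromosomes of the same group, 3A and 3D, and their scores differed by 0.266. No further lipid-transfer protein was listed, so the copy on 3B, if there is one, is not described here. No description in either table matched the keywords for globulins, gliadins, glutenins, storage proteins or late embryogenesis proteins (0 in each), but genes without a description could not be searched.

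The deposited p-values of the score table equal a normal tail probability taken on one side at the absolute score, within a relative difference of 1.24e-06. If they are doubled to two-sided values, the FDR becomes 0.0200 and 0.0319 for the lipoxygenases on 5D and 6B, 0.0458 for the lipid-transfer protein on 3D and 0.0951 for that on 3A. On this scale 3 of the 4 genes, and 33 of all 52, would be under 0.05. This reading was chosen after seeing the data. The signs of the tables also ran opposite to each other, since all 18 genes listed in both had a score of one sign and a log2 fold change of the other. For those 18 genes a negative score went with the positive side, where the 5B lipoxygenase and the synthase lie. The 4 genes described here are not among the 18, so no fold change is given for them. They were not among the probes that the authors' DESeq2 comparison listed at an FDR under 0.05.

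**Figure D3:**
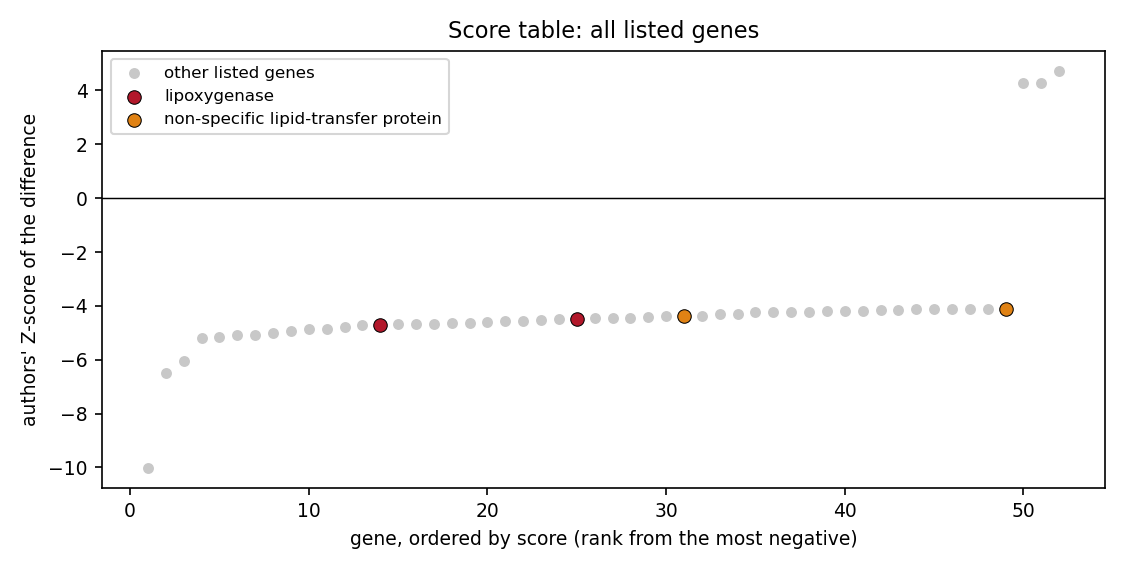
The authors' Z-score of the difference (vertical axis) for all 52 genes of the score table, ordered from the most negative. The lipoxygenases (red) at -4.71 and -4.50 stand at ranks 14 and 25 of the 49 negative scores, and the lipid-transfer proteins (orange) at -4.37 and -4.11 at ranks 31 and 49.

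Other described genes of lipid metabolism were collected with 26 further keywords. These found 5 of the 232 described genes in the DESeq2 table and 0 of the 38 in the score table. The list was chosen with earlier results of these data known. Of the 5 genes 1 was positive and 4 were negative, with a median log2 fold change of -1.23. The 232 described genes of the DESeq2 table were 70.3% positive, with a median of 1.63. All 861 listed probes were 51.2% positive, with a median of 1.13. A median over both signs depends mainly on which side holds more genes, so it adds little to the counts by sign. The positive gene was an allene oxide cyclase (TraesCS6D02G314300), which makes the cyclic precursor of jasmonic acid from the product of allene oxide synthase, and the authors' deposited DESeq2 table placed it at a log2 value of 1.62 (3.08-fold) where the implied SE was 0.34 and the DESeq2 adjusted p 0.000735. Its interval, from 0.96 to 2.29, overlapped that of the 5B lipoxygenase. No allene oxide synthase or 12-oxophytodienoate reductase, the enzymes before and after it, was listed under those names.

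The negative genes of this list were a dehydrogenase and 3 lipid kinases. In the authors' deposited DESeq2 table a glycerol-3-phosphate dehydrogenase (TraesCS1D02G312600), which interconverts a glycolytic intermediate and the backbone of glycerolipids, was at -1.68 on the log2 scale, where the SE was 0.46 and the DESeq2 adjusted p 0.0324. Diacylglycerol kinases, which convert diacylglycerol to phosphatidic acid, were listed on 3A (TraesCS3A02G315800, -1.26, SE 0.34) and 2D (TraesCS2D02G534600, -1.23, SE 0.28). The lowest of the list in size was a phosphatidylinositol phosphate kinase (TraesCS4B02G039400) at -1.19 (SE 0.34, DESeq2 adjusted p = 0.0484). All 4 were smaller in absolute fold than the median of the negative side, -1.71, and none of them elongates or oxidises fatty acids.

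The 7 genes lay on 7 chromosomes, with 1 on the A subgenome and 3 each on the B and D subgenomes. Their descriptions all came from TrEMBL, the unreviewed part of UniProt, per the description column. In the authors' fold changes, 73.0% of the listed probes had no description of their own gene, so further genes of these families may be listed without their name.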

How the data were processed

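Per the submitters' processing notes the authors' tools were STAR 2.7.10a, Trim Galore 0.6.7, FastQC 0.11.9 and DESeq2, whose version, like the role and order of all of them, is not stated. The sources used here give neither genome build nor annotation. Per the file headers the authors deposited p-values, adjusted p-values (FDR), log2 fold changes and shrunk log2 fold changes in the first table, and p-values, FDR and a Z-score in the second. The authors made the score by a comparison of K1 and US1 whose method the headers do not state. Read depth, library values and the libraries that entered are unknown. The planned output was descriptive and no test was run.

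Computed here, with Python 3.11.15, pandas 2.3.3 and scipy 1.17.1, were the implied SE (absolute log2 fold change divided by the standard normal deviate of its p-value, as for a two-sided Wald test), its 95% interval, ranks, and the number of tests from FDR times rank over p. The code for the last and for the SE was run on simulated data made with these same formulas. That run could check only the arithmetic. Whether the authors' p-values came from a Wald test was not tested. Samples were grouped by title. All 7 genes and all 5 other lipid genes are named, together with the gene that overlaps the lipoxygenase. The genes and lists were chosen with earlier results of these data known. The RefSeq gene table was not used. Alternatives were a stricter FDR, fold minimums, shrunk folds, other description matches, counting overlapping genes once, a narrower keyword list and two-sided p-values.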

Additional observations from a re-analysis of the deposited data

How the results depend on the processing

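The counts of the 3 genes in the DESeq2 table, 2 positive and 1 negative, were the same at an FDR under 0.01. They were also the same with a minimum absolute log2 fold change of 1, below the median absolute value of 1.81 over all listed probes. Under that FDR were 361 of all 861 listed probes. Shrunk folds and counting overlapping genes once gave the same counts but could not have changed them. Shrinkage keeps the sign, and the overlapping gene was already left out. Counting every probe with one of the terms gave 3 positive, by adding the gene opposite the lipoxygenase. At an FDR under 0.01 the score table held 0 of the 4 genes, against 14 of all 52 listed, and the nearest was the lipoxygenase on 5D at 0.01002. Of the 4 negative other lipid genes, 1 remained at an FDR under 0.01 (the diacylglycerol kinase on 2D), against the 361 of all 861 listed probes. With a minimum absolute log2 fold change of 1.5, chosen after seeing the data, 1 remained (the glycerol-3-phosphate dehydrogenase). Most listed probes passed that minimum, since their median absolute log2 fold change was 1.81. The narrower keyword list kept the counts at 1 positive and 4 negative, as did the shrunk folds, which could not change a sign. No paired analysis was possible because the tables hold no value per sample, and leaving out replicates could not be done for the same reason. Unknown depth limits every statement on level.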
